A study of Mus musculus with 4 samples.

Results

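The genes described here are 10 that encode enzymes and chaperones of collagen processing and folding in mouse embryonic fibroblasts (MEFs): *P4ha1*, *P4ha2*, *P4ha3*, *Plod1*, *Plod2*, *Plod3*, *Serpinh1*, *Crtap*, *Bmp1* and *Pcolce*. They were chosen by name, with earlier results of these data known. All 10 were found among the 24391 genes of the count table and among the 13668 genes with enough counts to be tested. RNA sequencing was performed on 2 WT and 2 *Phf2* KO libraries from quiescent MEFs. The culture notes describe primary MEFs from E13.5 embryos and immortalized MEFs, and do not state which were used for these libraries. All 4 libraries had the genotype Phf2 flox/flox, ERCre/+, in which floxed *Phf2* can be deleted by a tamoxifen-inducible CreERT2 recombinase that is expressed from the *Rosa26* locus. The *Phf2* KO libraries were labelled as treated with tamoxifen and the WT libraries were not. For deletion, confluent cells were arrested for 7 days in Opti-MEM with 2% charcoal-treated FBS and 0.5 µM 4-hydroxytamoxifen. The labels word this protocol alike for all 4 libraries and name no vehicle for the WT cells, so loss of *Phf2*, Cre activity and 4-hydroxytamoxifen cannot be told apart. The comparison asks whether loss of Phf2, a PHD finger protein of the KDM7 demethylase family, is accompanied by different mRNA levels of these genes.

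Fibrillar procollagen is modified and folded in the endoplasmic reticulum before it is secreted. Collagen prolyl 4-hydroxylase, a tetramer of P4HA α-subunits and the β-subunit P4HB, hydroxylates prolines, and this keeps the triple helix stable at body temperature. Lysyl hydroxylases (PLOD1, PLOD2 and PLOD3) hydroxylate lysines, which are then used for glycosylation and for cross-links between collagen molecules. Serpinh1 (HSP47) is a chaperone that binds the folded triple helix, and Crtap is a subunit of the prolyl 3-hydroxylation complex. After secretion, the metalloproteinase Bmp1 removes the C-propeptide of procollagen, and Pcolce binds the C-propeptide and enhances this cleavage. Fibroblasts are a main source of fibrillar collagen and express this machinery at high levels.

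The libraries held between 21094743 and 26094268 counts, and the 10 genes together took between 0.639% and 0.760% of these counts. *Phf2* itself was present at 138.1 ± 5.11 normalized CPM (counts after scaling for library size; mean ± SD, n = 2) in WT and at 79.9 ± 13.8 CPM in *Phf2* KO MEFs, that is 57.9% of the WT level. This count covers the whole gene, so it does not show how much of the floxed part was left. Summed fibroblast markers were 59883 and 66889 CPM in WT compared to 56736 and 55342 CPM in *Phf2* KO. Collagen genes made up most of this sum: of a WT mean of 63386 CPM, *Col1a1* had 25309, *Col1a2* 21188 and *Col3a1* 12159 CPM. Of these 12 markers, 5 (*Lum*, *Fbln1*, *Dcn*, *Col1a1* and *Col3a1*) were lower in both *Phf2* KO libraries than in both WT libraries, with log2 fold changes between -0.75 for *Lum* and -0.24 for *Col1a1*, and 0 were higher (18.0% and 15.5% of all genes tested). The remaining fibroblast markers overlapped between groups, with log2 fold changes between -0.09 for *Col1a2* and 0.10 for *Pdgfrb*. The part of these marker differences in the values below was not tested. Summed epithelial markers ranged from 0.482 to 1.00 CPM, and the endothelial markers *Tie1* and *Cldn5* were at 0 in all libraries. Summed levels of 12 macrophage markers were 3982 and 4555 CPM in replicate 1 of WT and *Phf2* KO and 877 and 1380 CPM in replicate 2. All 12, among them *Cd68*, were higher in replicate 1 in both genotypes (32.7% of all genes tested were). For 8 of the 12 the *Phf2* KO library exceeded the WT library within both replicate numbers, and for 0 it was lower within both. Among all genes tested, 62.7% had the same direction within both numbers, with higher and lower counted together. The share that was higher within both was not computed, so 62.7% is not the background for the 8 of 12. *Xist* had 10042 and 8336 counts in replicate 1 and 3 and 12 counts in replicate 2 of WT and *Phf2* KO, whereas *Ddx3y* had 6 and 10 counts in replicate 1 and 1271 and 1295 in replicate 2. The replicate number therefore coincided with the sex of the cells in both genotypes. The study calls the samples biological replicates, but no source used here states whether they came from separate embryos or whether WT and *Phf2* KO cells of one number shared an embryo, and p-values measure only the spread between these libraries. In such bulk samples, fewer cells of a type and less RNA per cell cannot be told apart.

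Levels of the 10 genes can be compared with each other only per length, and were therefore expressed as normalized CPM per kb of annotated exon (merged over transcripts). In WT MEFs, *Serpinh1* had 1359 ± 166 CPM per kb and *Pcolce* 458.7 ± 97.8 CPM per kb (SD, n = 2). *Crtap* (110.0 ± 10.0) and *Bmp1* (103.2 ± 19.7) followed, and these neighbours overlapped between libraries. *P4ha1* (78.8 ± 4.32), *Plod3* (60.0 ± 6.90), *Plod2* (47.1 ± 1.80), *P4ha2* (36.8 ± 2.35), *Plod1* (30.7 ± 2.54) and *P4ha3* (17.4 ± 2.42) came next, and each of them was separated from its neighbours in both WT libraries. The chaperone and the cleavage enhancer were thus the most abundant transcripts per length, and the third prolyl hydroxylase subunit was the least abundant.

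The middle of this order depended on the length used. When the longest annotated coding transcript of each gene was used as length, *Serpinh1*, *Pcolce* and *P4ha3* kept their ranks, but *P4ha2* (101.5 ± 6.46 CPM per kb) came before *P4ha1* (80.2 ± 4.40 CPM per kb) and *Pcolce* had 1078 ± 230 CPM per kb. In *Phf2* KO MEFs, with merged exons, *Bmp1* (116.5 CPM per kb) was ahead of *Crtap* (99.7 CPM per kb), and *P4ha2* (39.6 CPM per kb) was ahead of *Plod2* (29.9 CPM per kb). *Plod2* overlapped there with *Plod1* (29.0 CPM per kb). Fold changes between genotypes do not depend on the length.

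None of the 10 genes passed an adjusted p of 0.1 in edgeR's quasi-likelihood test, in which 0.00732% of all genes tested passed (1 of 13668). A fit that also used the replicate number as a term called *Plod2* and *P4ha3*, with its values given among the processing alternatives. Without that term, the adjusted p was 0.999 for each of the 10 genes. The deleted gene *Phf2* was not called without it either (edgeR unadjusted p = 0.0033, adjusted p = 0.999), whereas DESeq2 called it (adjusted p = 0.0032). An uncalled gene in this fit is therefore not shown to be unchanged. At an unadjusted p below 0.05 in the same test, 2 of the 10 were lower in *Phf2* KO (*Plod2* and *P4ha3*) and 0 were higher, compared to 2.67% lower and 1.54% higher among all genes. Both *Phf2* KO libraries lay below both WT libraries for *Plod2* and *P4ha3* and above them for *P4ha2* and *Plod3*. Such separation, in either direction, was found for 33.5% of all genes tested, 18.0% lower and 15.5% higher. The members' count of 4 of 10 was therefore near the background, and the median log2 fold change was -0.0025 over the 10 genes and 0.0054 over all genes. Without WT replicate 2, 9 of the 10 genes were separated, and without WT replicate 1 or *Phf2* KO replicate 1 the separated genes numbered 7. A group of 1 library overlaps less easily, and the share over all genes was not computed for these settings. These counts can therefore not be set against the 33.5%.

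**Figure D1:**
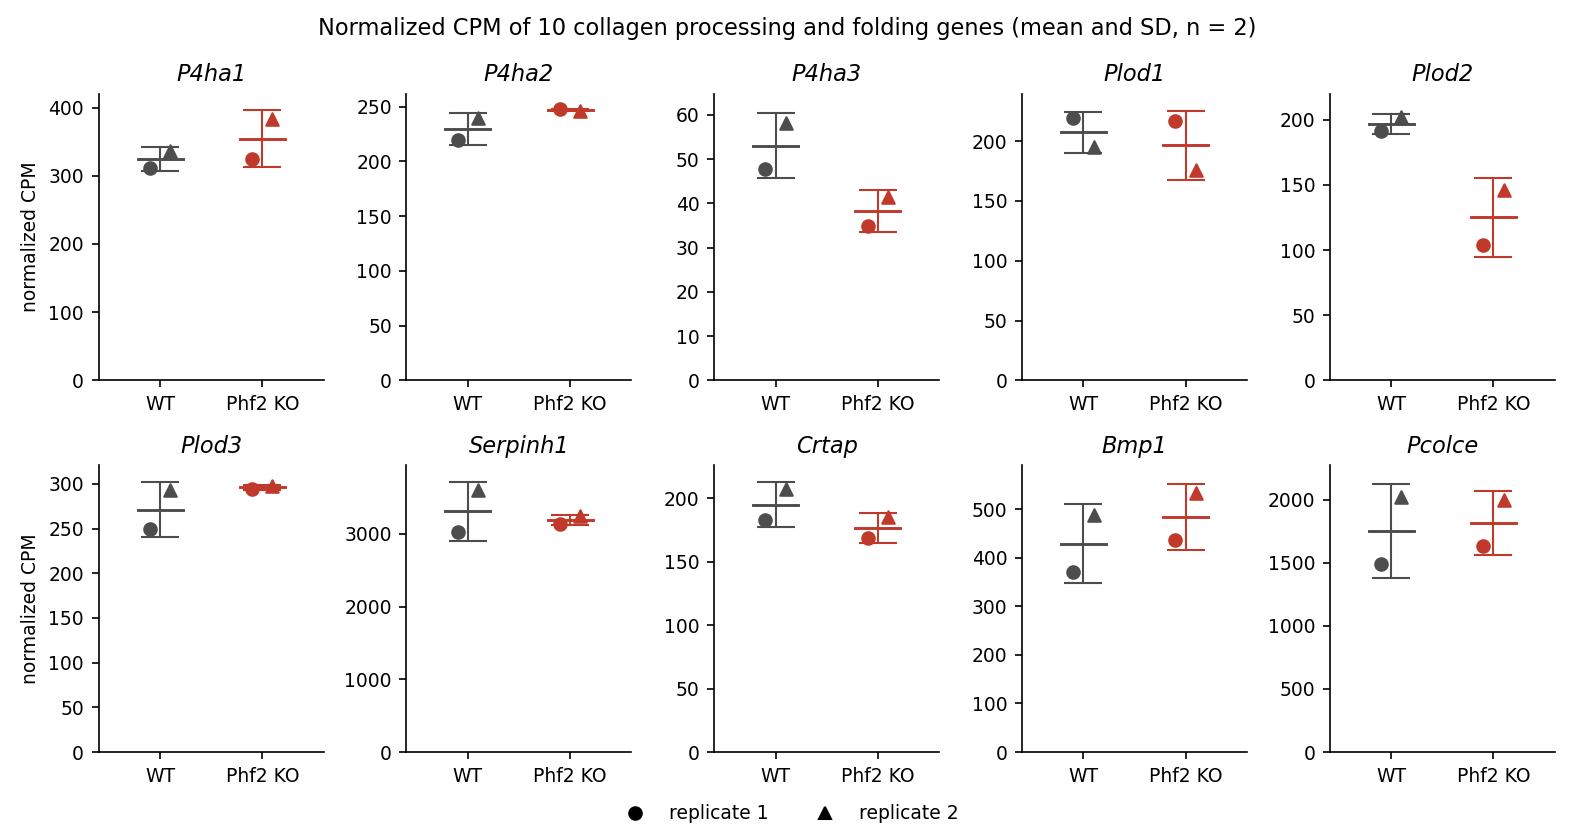
Normalized CPM (vertical axes, linear, starting at 0) of each gene in WT and *Phf2* KO MEFs, with circles for replicate 1, triangles for replicate 2, and horizontal lines and bars for the mean and SD (n = 2). The *Phf2* KO libraries sit below the WT libraries for *P4ha3* and *Plod2* and above them for *P4ha2* and *Plod3*, and the groups overlap for the other 6 genes.

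The prolyl 4-hydroxylase α-subunits differed in how they compared between genotypes. *P4ha1*, which encodes the most widely expressed α-subunit, lies on the forward strand of chromosome 10 (58786044 to 58836052; all gene positions are in mm9). WT replicates 1 and 2 had 311.7 and 336.9 normalized CPM, compared to 325.2 and 383.9 CPM in *Phf2* KO replicates 1 and 2 (further values are given in the same order). The groups overlapped, and only *Phf2* KO replicate 2 was above both WT libraries. The log2 fold change of *Phf2* KO over WT was 0.13 (SE 0.12, 95% interval -0.19 to 0.45).

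*P4ha2*, which encodes an α-subunit prominent in cartilage and bone, lies on the forward strand of chromosome 11 (53913597 to 53945167). Its levels were 219.3 and 240.0 CPM in WT compared to 247.5 and 246.1 CPM in *Phf2* KO. Both *Phf2* KO libraries were above both WT libraries, but the gap to WT replicate 2 was smaller than the distance between the WT libraries. Its log2 fold change was 0.10 (SE 0.091, interval -0.14 to 0.34).

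*P4ha3* encodes the third α-subunit and lies on the forward strand of chromosome 7 (107434030 to 107468209). It had 47.8 and 58.2 CPM in WT (1153 and 1512 counts) and 34.9 and 41.5 CPM in *Phf2* KO (723 and 999 counts). Both *Phf2* KO libraries were below both WT libraries, and the *Phf2* KO mean was 72.1% of the WT mean. The fit gave a log2 fold change of -0.47 (SE 0.15, interval -0.87 to -0.07, edgeR unadjusted p = 0.030, adjusted p = 0.999). Within replicate numbers it was -0.46 for replicate 1 and -0.49 for replicate 2. Of all genes tested, 4.58% had a lower log2 fold change.

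As shares of the summed P4ha counts per kb, *P4ha1* took 59.8% and 58.7% in WT compared to 60.7% and 63.7% in *Phf2* KO. *P4ha3* took 12.4% and 13.7% in WT compared to 8.81% and 9.32% in *Phf2* KO, a difference of -4.00 percentage points between the means of 13.1 ± 0.929% and 9.06 ± 0.366% (SD, n = 2). With coding transcript lengths, the *P4ha3* means were 11.0% in WT and 7.59% in *Phf2* KO. The ratio of *P4ha3* to *P4ha1* counts, in which library size and length cancel between genotypes, differed by -0.60 on the log2 scale, and that of *P4ha3* to *P4ha2* by -0.58. In both ratios the groups did not overlap, but an exact two-sided permutation test with 2 against 2 libraries cannot go below p = 0.333, the value that each ratio reached. The ratio of *P4ha2* to *P4ha1* differed by -0.02 (exact permutation p = 1).

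The promoters of the 3 P4ha genes are shown because *P4ha1* and *P4ha2* are textbook targets of the hypoxia-inducible factor HIF-1. Its core motif was searched in the form ACGTG only, and other forms of the core were not searched. The windows are the 250 bases before the annotated start of each gene (RefSeq, GRCm38.p6, gene strand, which is the forward strand for all 3), with matches to ACGTG on either strand in capitals (CACGT is its reverse complement). Entries were found for 8 of the 10 genes, all except *Plod2* and *Bmp1*.
P4ha1, chr10:59323046-59323295: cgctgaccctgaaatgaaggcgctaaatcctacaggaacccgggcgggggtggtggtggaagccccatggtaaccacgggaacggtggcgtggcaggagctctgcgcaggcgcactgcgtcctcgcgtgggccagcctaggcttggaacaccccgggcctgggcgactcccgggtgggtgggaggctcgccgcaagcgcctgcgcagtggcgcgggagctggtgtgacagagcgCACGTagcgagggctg
P4ha2, chr11:54100674-54100923: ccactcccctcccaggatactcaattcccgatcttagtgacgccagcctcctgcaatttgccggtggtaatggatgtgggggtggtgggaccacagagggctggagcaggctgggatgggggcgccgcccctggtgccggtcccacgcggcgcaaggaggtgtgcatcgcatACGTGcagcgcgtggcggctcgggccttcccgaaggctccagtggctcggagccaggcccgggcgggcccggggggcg
P4ha3, chr7:100285270-100285519: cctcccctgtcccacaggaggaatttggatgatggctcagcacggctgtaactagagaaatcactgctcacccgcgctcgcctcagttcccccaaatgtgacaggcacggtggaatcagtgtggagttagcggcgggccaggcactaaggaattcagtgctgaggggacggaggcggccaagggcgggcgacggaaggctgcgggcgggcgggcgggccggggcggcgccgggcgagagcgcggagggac
The match lies 16 bases before the start in *P4ha1* and 78 bases before it in *P4ha2*, and the *P4ha3* window holds none. Among the other members, *Serpinh1* and *Plod3* each had 1 match, so 4 of 8 windows held ACGTG, compared to 16.6% of 32851 promoter windows. A window without this form can hold another form of the HIF-1 core. A CCAAT motif was present in *Plod3* only (33.8% of all windows), and the heat shock element core GAANNTTC was found in 0 of 8 (6.69% of all windows). These matches describe letters in short windows and not binding.

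Of the lysyl hydroxylases, *Plod2* had the largest difference between genotypes among the 10 genes. PLOD2 hydroxylates lysines in the telopeptides at the ends of collagen molecules, and the gene lies on the forward strand of chromosome 9 (92437061 to 92503266). Its levels were 191.5 and 202.1 CPM in WT (4617 and 5246 counts) and 103.8 and 146.5 CPM in *Phf2* KO (2151 and 3523 counts). Both *Phf2* KO libraries were below both WT libraries, the mean in *Phf2* KO was 63.6% of that in WT, and the *Phf2* KO libraries were further apart (125.1 ± 30.2) than the WT libraries (196.8 ± 7.51; SD, n = 2). The difference corresponded to a log2 fold change of -0.65 (SE 0.18, interval -1.14 to -0.17, edgeR unadjusted p = 0.019, adjusted p = 0.999). It was -0.88 within replicate 1 and -0.46 within replicate 2, and 2.71% of all genes tested had a lower value. Summed macrophage markers were higher in replicate 1, and summed fibroblast markers, mostly collagen counts, were lower in *Phf2* KO (above). Their part in the values of *Plod2* and *P4ha3* was not tested. When single libraries were left out, the log2 fold change of *Plod2* lay between -0.92 and -0.43 and that of *P4ha3* between -0.60 and -0.34.

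*Plod1* encodes a lysyl hydroxylase of the helical region and lies on the reverse strand of chromosome 4 (147283862 to 147310876). It had 219.8 and 195.5 CPM in WT compared to 217.0 and 175.9 CPM in *Phf2* KO, and the groups overlapped. The libraries of replicate 2 were lower than those of replicate 1 in both genotypes, in contrast to most of the 10 genes. The log2 fold change was -0.08 (SE 0.14, interval -0.45 to 0.29), and its sign turned without WT replicate 1 (0.019) or *Phf2* KO replicate 2 (0.061).

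*Plod3*, whose product also has glycosyltransferase activity, lies on the forward strand of chromosome 5 (137462889 to 137472518), where the annotation places *Mir702* on the same strand and *Znhit1* on the opposite one. It had 249.3 and 293.4 CPM in WT compared to 294.1 and 297.9 CPM in *Phf2* KO. WT replicate 2 was nearly level with the *Phf2* KO libraries, whereas WT replicate 1 was lower, and the groups overlapped when counts were scaled by library size alone. Its log2 fold change was 0.13 (SE 0.11, interval -0.17 to 0.42), and it was 0.24 within replicate 1 and 0.02 within replicate 2.

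Within the Plod family, the share of *Plod2* in the counts per kb was 34.3% and 34.0% in WT compared to 20.4% and 27.6% in *Phf2* KO, a difference of -10.2 percentage points. *Plod3* took 41.3% and 45.7% in WT compared to 53.4% and 51.9% in *Phf2* KO, a difference of 9.13 points. The share of *Plod1* overlapped between groups. Shares within a family depend on each other, so a lower share of *Plod2* raises the others. The log2 fold change of *Plod3* itself was 0.13. With coding transcript lengths, the mean share of *Plod2* was 26.8% in WT and 18.5% in *Phf2* KO, and that of *Plod3* was 41.2% and 48.8%. The count ratio of *Plod2* to *Plod3* differed by -0.80 on the log2 scale and that of *Plod2* to *Plod1* by -0.59 (exact permutation p = 0.333 for each, the smallest possible value), and that of *Plod1* to *Plod3* by -0.22 (exact permutation p = 0.667). In both ratios that contain *Plod2*, the groups did not overlap.

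**Figure D2:**
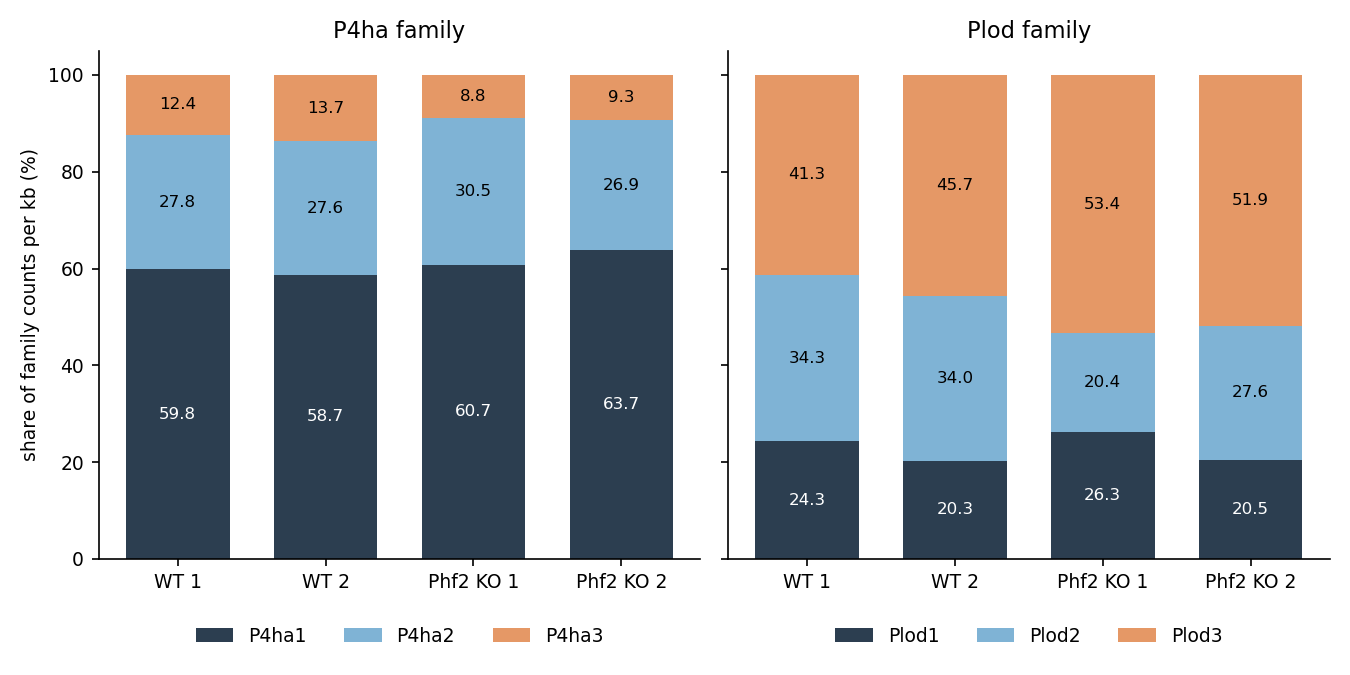
Share of each gene in the summed counts per kb of merged exon of its family (vertical axis, %) in each library, for P4ha genes (left) and Plod genes (right), with the values printed in the bars. *P4ha3* takes 12.4% and 13.7% in WT compared to 8.81% and 9.32% in *Phf2* KO, and *Plod2* 34.3% and 34.0% in WT compared to 20.4% and 27.6% in *Phf2* KO.

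The folding factors overlapped between genotypes. *Serpinh1* lies on the reverse strand of chromosome 7 (106493885 to 106501740), 932 kb from *P4ha3*. It had 3023 and 3596 CPM in WT compared to 3136 and 3238 CPM in *Phf2* KO, so both *Phf2* KO libraries lay between the WT libraries. The fit gave a log2 fold change of -0.05 (SE 0.13, interval -0.41 to 0.30), and without WT replicate 2 it was 0.060. Thus the most abundant of the 10 genes was also one of those with the smallest difference.

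*Crtap*, on the reverse strand of chromosome 9 (114284252 to 114299793) with *4930520O04Rik* on the opposite strand, had 182.3 and 207.5 CPM in WT compared to 168.4 and 184.9 CPM in *Phf2* KO. The *Phf2* KO library was lower than the WT library of the same number in both replicates, with log2 ratios of -0.11 and -0.17, but the groups overlapped. The difference corresponded to a log2 fold change of -0.14 (SE 0.11, interval -0.43 to 0.15).

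The genes for removal of the C-propeptide also overlapped between genotypes. *Bmp1*, on the reverse strand of chromosome 14 (70874364 to 70920067), had 371.1 and 486.9 CPM in WT compared to 436.5 and 532.1 CPM in *Phf2* KO. Replicate 2 was higher than replicate 1 in both genotypes, and this difference was larger than the one between genotypes. The log2 fold change was 0.18 (SE 0.18, interval -0.30 to 0.66).

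*Pcolce*, on the reverse strand of chromosome 5 (138046331 to 138055012), 574 kb from *Plod3*, overlaps *Fbxo24* on the same strand, and reads in the shared stretch cannot be assigned with certainty. It had 1489 and 2018 CPM in WT compared to 1635 and 1994 CPM in *Phf2* KO, so the *Phf2* KO libraries lay within the WT range. Its log2 fold change was 0.05 (SE 0.20, interval -0.48 to 0.57), which became -0.14 without WT replicate 1 and -0.10 without *Phf2* KO replicate 2. The ratio of *Pcolce* to *Bmp1* counts was 2.00 and 2.05 in WT compared to 1.91 and 1.91 in *Phf2* KO on the log2 scale, a difference of -0.12 (exact permutation p = 0.333). The groups did not overlap in this ratio, and the difference was smaller than that in any ratio that contained *Plod2* or *P4ha3*.

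**Figure D3:**
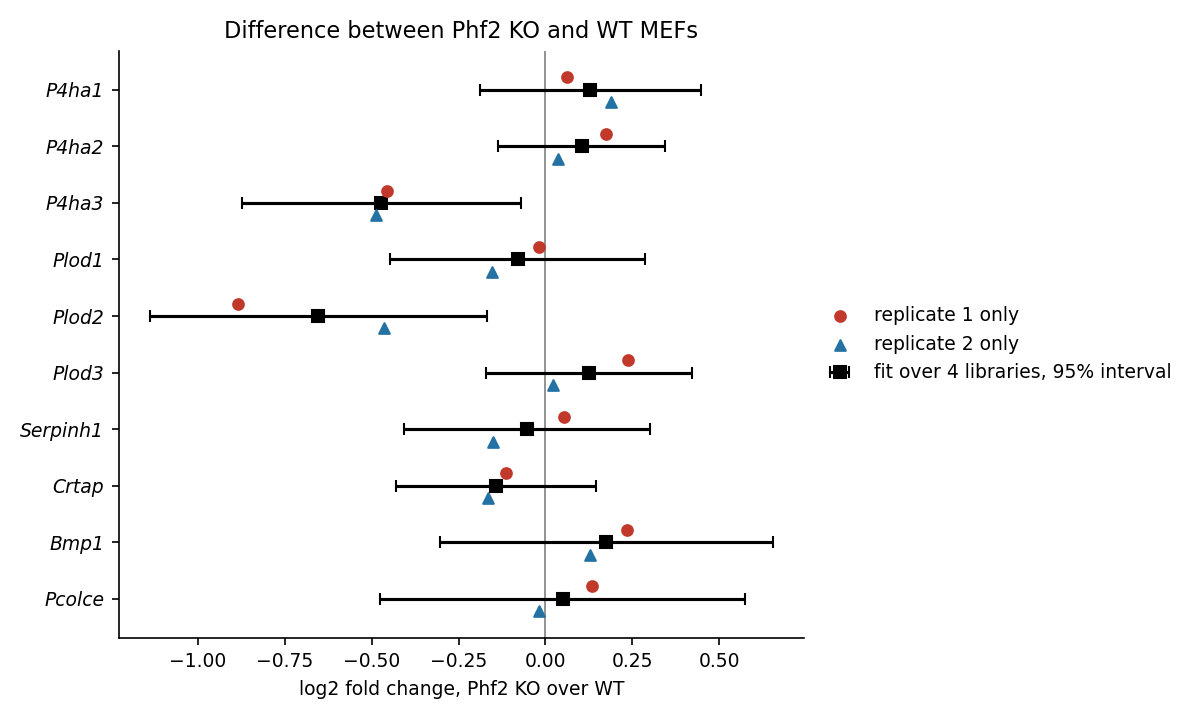
Log2 fold change of *Phf2* KO over WT (horizontal axis) for each gene, with black squares and bars for the fit over 4 libraries and its 95% interval, red circles for replicate 1 alone and blue triangles for replicate 2 alone. The intervals of *P4ha3* (-0.87 to -0.07) and *Plod2* (-1.14 to -0.17) lie below 0, and those of the other 8 genes include 0.

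Within replicate numbers, 8 of the 10 genes had the same direction in both replicates, the exceptions being *Serpinh1* and *Pcolce*, compared to 62.7% of all genes tested. The 95% intervals of *P4ha1*, *P4ha2*, *Plod1*, *Plod3*, *Serpinh1* and *Crtap* reached no further than 0.45 from 0 on the log2 scale. By contrast, the difference between replicate numbers had the same direction in most genes. Replicate 2 was higher than replicate 1 for 9 of 10 genes in WT and for 8 of 10 in *Phf2* KO, and the median log2 difference was 0.21 in WT and 0.19 in *Phf2* KO, compared to 0.02 and 0.001 over all genes. In both genotypes together, 8 genes were higher in replicate 2 (35.9% of all genes tested were) and 1 gene, *Plod1*, was lower (32.7% of all genes). *Pcolce* (0.44 in WT and 0.29 in *Phf2* KO) and *Bmp1* (0.39 and 0.29) had the largest such differences in WT, and *Plod2* had the largest in *Phf2* KO (0.50, compared to 0.08 in WT). The summed level of the 10 genes was 6305 and 7634 CPM in WT compared to 6599 and 7240 CPM in *Phf2* KO. Summed macrophage markers and the sex of the cells moved with the replicate number (above), and their part in this difference was not tested.

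**Figure D4:**
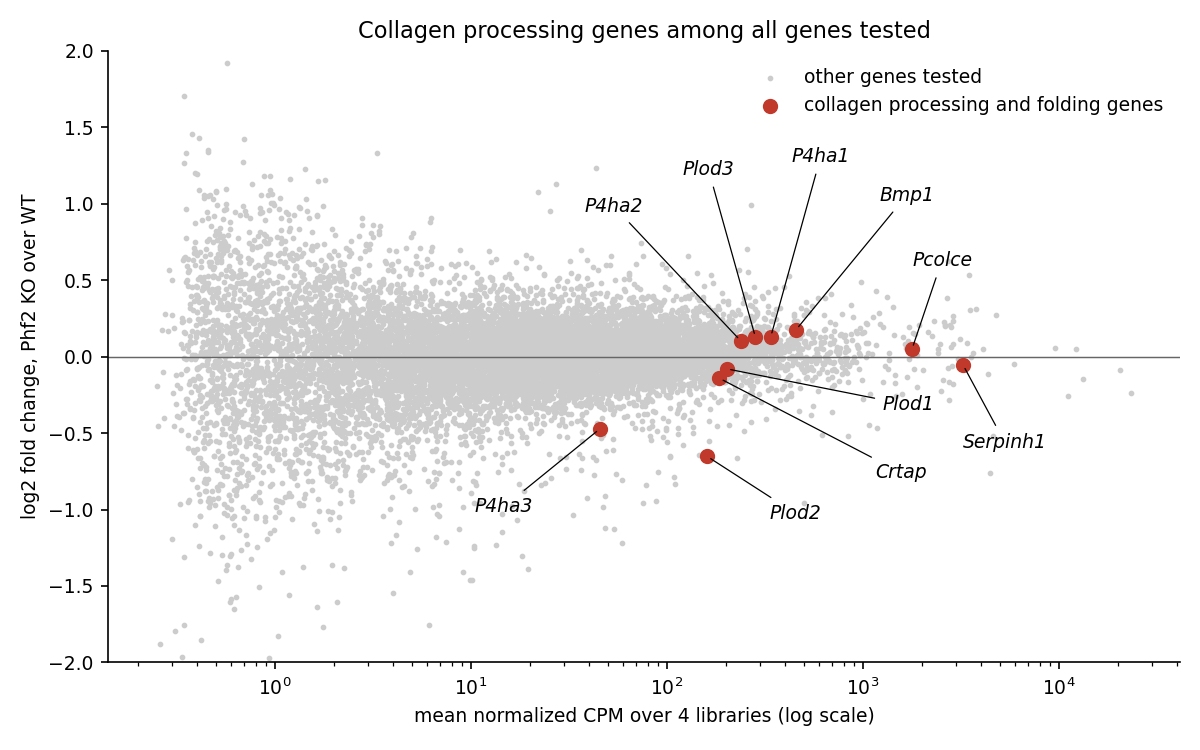
Log2 fold change of *Phf2* KO over WT (vertical axis) against mean normalized CPM over 4 libraries (horizontal log axis) for all genes tested (grey) and the 10 collagen genes (red); 24 genes lie beyond the limits of ±2. 8 of the 10 genes lie near 0, whereas *P4ha3* (-0.47) and *Plod2* (-0.65) lie lower.

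Of 28 other genes of collagen biosynthesis, 24 had enough counts to be tested. None passed an adjusted p of 0.1 in edgeR's test, 0 were higher and 5 lower at an unadjusted p below 0.05, and 11 had a log2 fold change above 0 and 13 below 0 (median -0.01). Among all genes tested, 2.67% were lower and 1.54% higher at that p. The adjusted p was 0.999 for each of the 24. *Phf2* KO and WT libraries were separated for 14 of them, 5 higher and 9 lower in *Phf2* KO, compared to 15.5% higher and 18.0% lower among all genes. *Colgalt2* and *Tll2* were too low to be tested, and the rows *Mia3* and *Mia2* were at 0 in all libraries. Whether absent expression or the gene annotation used for counting gave these values of 0 was not tested. The hydroxylation partners included *P4hb*, the β-subunit that is shared by all prolyl 4-hydroxylases, with 1002 and 1055 CPM in WT compared to 1088 and 1100 CPM in *Phf2* KO (log2 fold change 0.09). *Ppib*, the cyclophilin of the prolyl 3-hydroxylation complex, had 64.2 and 85.2 CPM in WT compared to 92.5 and 92.8 CPM in *Phf2* KO (0.31). The groups were separated for both genes, with *Phf2* KO higher. The other partners overlapped between groups and are named here after their values were seen. They were *P3h1* (log2 fold change 0.19), *P3h2* (-0.06), *P3h3* (-0.01) and *P3h4* (-0.004). Of the 6 hydroxylation partners, 3 had a log2 fold change above 0 and 3 below 0 (median 0.04).

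Among the lysine modification partners, *Fkbp10*, a chaperone that acts with PLOD2 on telopeptide lysines, had 321.7 and 399.5 CPM in WT compared to 343.9 and 390.0 CPM in *Phf2* KO (log2 fold change 0.03). Its groups overlapped, whereas those of *Plod2* did not. *Tmem38b*, an endoplasmic reticulum cation channel, had 30.7 and 29.5 CPM in WT compared to 38.4 and 33.5 CPM in *Phf2* KO (0.26). In the secretion group, *Sec24d*, a COPII coat subunit, had a log2 fold change of -0.19. *Creb3l1*, a membrane-bound transcription factor of the secretory pathway, had 164.1 and 155.6 CPM in WT compared to 120.5 and 105.7 CPM in *Phf2* KO (-0.50, edgeR unadjusted p = 0.005, adjusted p = 0.999). Of the 4 tested secretion genes, 3 (*Sec23a*, *Sec24d* and *Creb3l1*) were lower in both *Phf2* KO libraries than in both WT libraries (18.0% of all genes were). The fourth, *Ctage5*, overlapped and had a log2 fold change of 0.04; *Sec23a* and *Ctage5* are named here after their values were seen.

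Of 5 tested genes for propeptide removal, which include the N-proteinases and relatives of *Bmp1*, 4 had a log2 fold change below 0. *Adamts2*, the main N-proteinase, had 738.0 and 836.4 CPM in WT compared to 590.9 and 634.0 CPM in *Phf2* KO (log2 fold change -0.36). *Adamts3* had only 52 and 95 counts in WT and 21 and 39 counts in *Phf2* KO (-1.13). *Tll1*, a Bmp1-like proteinase, had 155 and 139 counts in WT and 79 and 103 counts in *Phf2* KO (-0.54). In all 3 genes the *Phf2* KO libraries lay below the WT libraries (18.0% of all genes tested), which was not so for *Bmp1* itself. The fourth gene below 0 was *Pcolce2* (log2 fold change -0.07), which is named here after its values were seen. It had only 10 to 15 counts per library, and its groups overlapped. The gene above 0 was *Adamts14* (log2 fold change 0.27), which is named here after its values were seen. Both of its *Phf2* KO libraries lay above both WT libraries (15.5% of all genes tested).

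Among the cross-linking enzymes, which oxidize lysines and hydroxylysines outside the cell, *Lox* was the most highly counted, with 3727 and 4376 CPM in WT compared to 4148 and 4244 CPM in *Phf2* KO (log2 fold change 0.05). *Loxl2* had 773.5 and 685.9 CPM in WT compared to 491.4 and 531.9 CPM in *Phf2* KO (-0.51, edgeR unadjusted p = 0.007, adjusted p = 0.999). *Loxl1* (0.26) was higher in both *Phf2* KO libraries and *Loxl4* (-0.75) lower. The lysyl oxidase genes thus lay on both sides of WT.

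**Figure D5:**
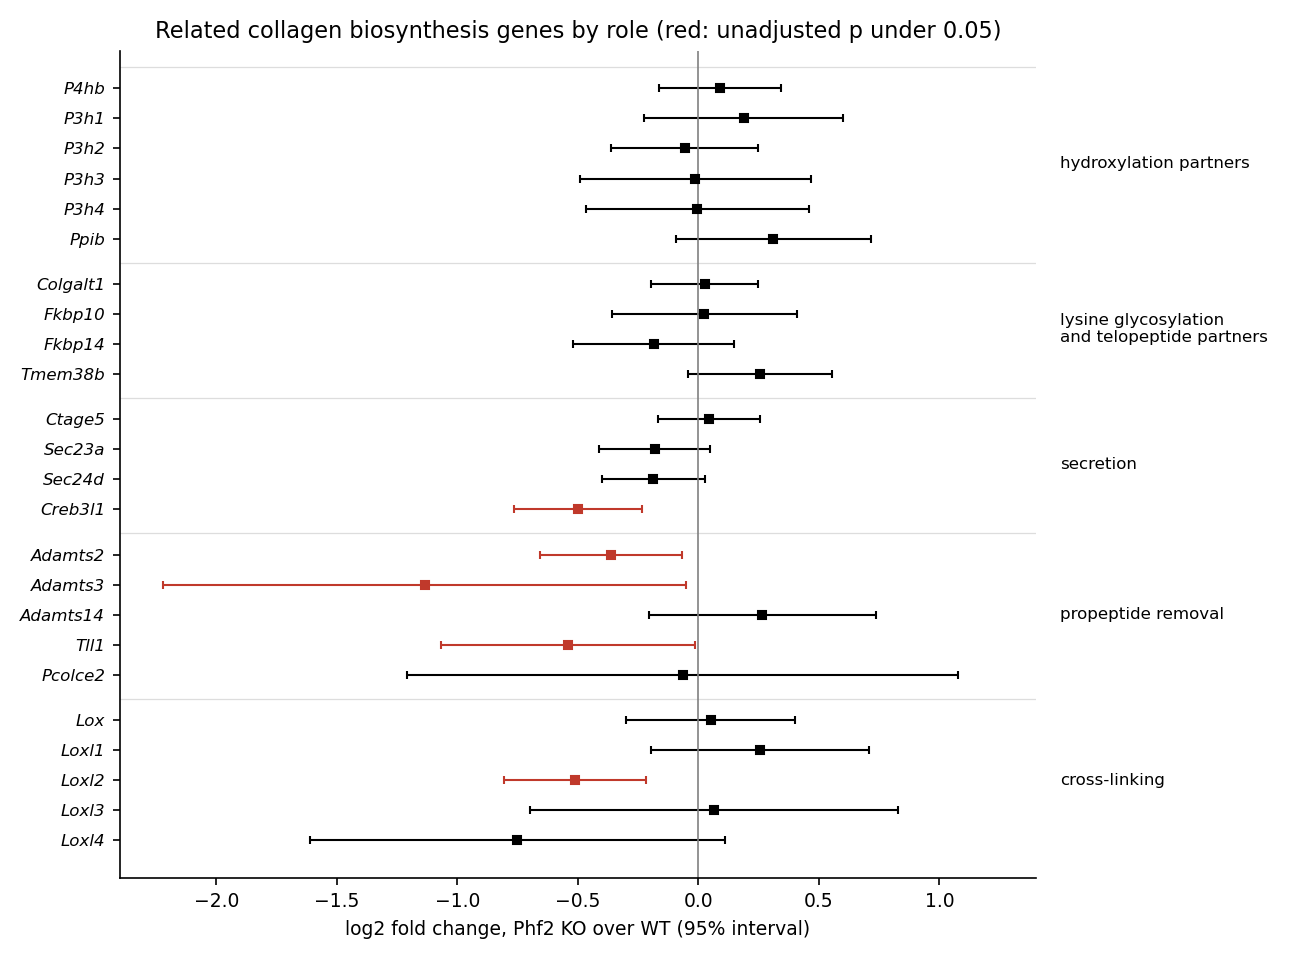
Log2 fold change of *Phf2* KO over WT with 95% intervals (horizontal axis) for the 24 other collagen biosynthesis genes tested, grouped by role, with red marking an unadjusted edgeR p below 0.05. The 5 genes in red (*Creb3l1*, *Adamts2*, *Adamts3*, *Tll1* and *Loxl2*) all lie below 0.

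Fibrillar procollagens are among the proteins that the 10 gene products act on, and 5 of their genes were examined. All 5 had a log2 fold change below 0 (median -0.24), none passed an adjusted p of 0.1 in edgeR's test, 1 was lower and 0 were higher at an unadjusted p below 0.05 (2.67% and 1.54% of all genes tested), and 4 were lower in both *Phf2* KO libraries than in both WT libraries (18.0% of all genes). *Col1a1* had 23037 and 27581 CPM in WT compared to 21828 and 21064 CPM in *Phf2* KO (-0.24), *Col1a2* had a log2 fold change of -0.09 and *Col3a1* one of -0.26. The gene at an unadjusted p below 0.05 was *Col5a1* (-0.52), which is named here after its values were seen and which DESeq2 called (adjusted p = 0.00111). *Col1a1* and *Col3a1* were also among the fibroblast markers above. Relative to *Col1a1*, the chaperone *Serpinh1* was 0.18 higher in *Phf2* KO on the log2 scale, with count ratios of -2.93 and -2.94 in WT compared to -2.80 and -2.70 in *Phf2* KO (exact permutation p = 0.333). The groups did not overlap in this ratio, although they did in *Serpinh1* itself.

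As several hydroxylases are known to be induced by HIF-1, 12 reference genes of that factor were also listed. None passed an adjusted p of 0.1 in edgeR's test, 2 were higher and 0 lower at an unadjusted p below 0.05 (1.54% and 2.67% of all genes tested), and the median log2 fold change was 0.14, with 9 genes above 0. *Slc2a1*, a glucose transporter, had 162.1 and 230.4 CPM in WT compared to 286.2 and 354.4 CPM in *Phf2* KO (0.71). *Ldha*, lactate dehydrogenase A, had a log2 fold change of 0.15, and *Adm*, the peptide hormone adrenomedullin, one of 0.36 (called by DESeq2, adjusted p = 0.0991). *P4ha1* (0.13) and *P4ha2* (0.10) had values close to the median of this list, with intervals that included 0. Regardless of sign, the median size of the log2 fold change over all genes tested was 0.12. *Plod2* (-0.65), which is also a textbook HIF-1 target, had the opposite sign. A part of HIF-1 in these values was not tested.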

How the data were processed

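RNA-seq counts of 4 MEF libraries (2 WT, 2 *Phf2* KO) were analyzed. The deposited values are raw counts per gene: the authors trimmed single 50-nt reads with Trim Galore, removed rRNA reads with Bowtie2, mapped to mm9 with STAR (reverse stranded) and counted with featureCounts (versions not given in the sources used here). A deposited table of the authors' DESeq2 results was not used.

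Genes were filtered with filterByExpr and normalized with TMM, and a quasi-likelihood model with genotype as its term was fitted (edgeR 4.0.16, R 4.3.3). P-values were Benjamini-Hochberg adjusted over 13668 genes and called at 0.1. Normalized CPM are counts divided by TMM-scaled library sizes. Depth was 21094743 to 26094268 counts, at which 3 counts equal 0.116 to 0.145 CPM. Ratios were compared with exact two-sided permutation tests. Gene positions and lengths came from Gencode vM1 (mm9) and promoters from RefSeq.

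Alternatives were DESeq2 1.42.0, limma-voom (limma 3.58.1), other scalings, filters and thresholds, a replicate block, and leaving out each library. Scripts were tested on simulated data. Members and gene lists were chosen with earlier results of these data known. All 10 members are named, as are related genes called with or without the block, the most highly counted gene per role and the 3 most highly counted of the other lists.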

Additional observations from a re-analysis of the deposited data

How the results depend on the processing

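Each group had 2 libraries of at least 21094743 counts, and the lowest count of a member was 723 (*P4ha3* in *Phf2* KO replicate 1). Whether depth or the spread between libraries limited the calls was not tested. Under DESeq2, limma-voom, both other scalings and both other filters, the 10 log2 fold changes kept their direction and stayed uncalled in 60 of 60 values, and 2 of the 10 genes were lower and 0 higher at an unadjusted p below 0.05 by each tool, scaling and filter.

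Genes called in all numbered 1 with edgeR (211 higher and 365 lower at an unadjusted p below 0.05), 64 with DESeq2 (205 and 273), 0 with limma-voom (223 and 352), and 0 with edgeR at adjusted p of 0.05 or 0.01 or when any library was left out (0 to 0). Called genes among the related genes numbered 0 of 24 with edgeR and 2 of 26 with DESeq2, which called 0.338% of the 18924 genes it tested (*Creb3l1*, adjusted p = 0.0667, and *Loxl2*, adjusted p = 0.0250). With the replicate number as a block, 1500 genes were called (789 higher, 711 lower; 11.0% of those tested), including 2 of the 10 members, *Plod2* (log2 fold change -0.67, adjusted p = 4.57e-13) and *P4ha3* (-0.47, adjusted p = 1.30e-05), both lower (5.20% of all genes were), and 9 related genes (3 higher, 6 lower). It also called *Col5a1* (adjusted p = 0.00105) and 2 of 12 fibroblast markers, *Lum* and *Fbln1*, lower, and *Slc2a1* (3.02e-14), *Adm* (0.000632) and 8 of 12 macrophage markers, among them *Lyz2*, higher (5.77% of all genes were). With 4 libraries, the block fit left little replication within a gene. Its p-values therefore rest mostly on a spread estimated over all genes together (common dispersion 0.00363, compared to 0.0451 without the block). The numbers are not stated to pair the samples, although the replicate difference in WT and in *Phf2* KO correlated at r = 0.793 across genes, which are not independent replicates. The block changed no other member's call.

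When single libraries were left out, the median log2 fold change ranged from -0.069 to 0.11 for the members and from -0.19 to 0.075 for the related genes. The members that did not overlap numbered 4 with all libraries and 5 to 9 with 1 left out. They numbered 7 without WT replicate 1 or *Phf2* KO replicate 1 and 9 without WT replicate 2. A group of 1 library overlaps less easily, and the share over all genes was not computed with 1 library left out. The 2 members at an unadjusted p below 0.05 became 0 without WT replicate 2 and 1 without *Phf2* KO replicate 1. The sign turned for *Plod1* (-0.24 to 0.061), *Serpinh1* (-0.16 to 0.060) and *Pcolce* (-0.14 to 0.27); the cause was not tested.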
